A study of Homo sapiens with 21 samples.

Results

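The regions described here are 274 promoter regions of histone H3 lysine 4 trimethylation (H3K4me3) whose covered length was smaller in RS4;11 cells grown without asparagine than in the same cells in complete medium. They were taken from a merged table of 19279 H3K4me3 regions. Of these, 13883 held a peak in all 9 H3K4me3 libraries, 10135 of them lay at the start of a protein-coding or lncRNA gene (outer 5′ end at most 1 kb away), and 9375 of those averaged under 3500 bp in complete medium. Members were chosen by covered length: a region was kept when its mean length without asparagine was at most 0.93 of its mean length in complete medium and all 3 libraries without asparagine were shorter than all 3 libraries of complete medium. The 274 regions are 2.92% of the 9375, and the other 9101 serve as the comparison. The mirror image of the rule, with lengths that grew, was met by 2580 regions.

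RS4;11 is an established human B cell precursor leukaemia line that carries a KMT2A fusion. The cells were kept for 24 h in 3 media: medium without asparagine to which ferric nitrate was added at 10 µM together with 0.75 µM hinokitiol, a natural iron-binding compound that can move iron through membranes (-Asn+Fe); medium without asparagine (-Asn); and complete medium (+Asn). Each medium had 3 H3K4me3 libraries and 3 RNA libraries. The labels do not say whether the media without added iron held hinokitiol, so iron and hinokitiol cannot be told apart, nor whether replicates were separate cultures, so p-values measure the spread between these libraries. All 8 B-lineage check genes were at 1 CPM or more (counts per 1000000 of library size, with sizes scaled by TMM factors of 1.06 to 1.09 in -Asn+Fe, 1.02 to 1.06 in -Asn and 0.888 to 0.912 in +Asn libraries) in each medium, summing to 1876 to 1969 CPM in -Asn+Fe, 2155 to 2225 CPM in -Asn and 2209 to 2329 CPM in +Asn libraries. The 7 T-lineage genes summed to 254 to 275 CPM in -Asn+Fe, 300 to 370 CPM in -Asn and 341 to 363 CPM in +Asn libraries, with 1 of them, TRAC, above 1 CPM. The 7 myeloid genes summed to 11.6 to 18.3 CPM, and the 6 erythroid genes summed to under 1 CPM in every library.

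H3K4me3 marks the start of active and poised genes. It is written by the SET1 and MLL methyltransferase complexes, which are recruited with RNA polymerase II and through unmethylated CpG islands, and the mark spreads from the start into the first part of the gene. It is removed by the KDM5 demethylases, JmjC enzymes that need iron and 2-oxoglutarate. Many acute lymphoblastic leukaemia cells depend on asparagine from outside the cell, which is the basis of asparaginase therapy.

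The promoter windows of 6 genes at these regions are printed from RefSeq (GRCh38.p14), each running 5′ to 3′ on the gene's strand from 250 bases before to 50 bases after the annotated start. They show the range of promoters among the narrowing regions: HMGCS1, a sterol gene; DCLRE1C, a DNA repair gene; TK1 and UNG, nucleotide and uracil-repair genes of S phase; and GCSAM and CD48, lymphoid genes with few CpGs. Capitals mark every match to TATAAA or CCAAT on either strand, so that TTTATA and ATTGG are the reverse complements; where matches overlap, the capitals join.
HMGCS1: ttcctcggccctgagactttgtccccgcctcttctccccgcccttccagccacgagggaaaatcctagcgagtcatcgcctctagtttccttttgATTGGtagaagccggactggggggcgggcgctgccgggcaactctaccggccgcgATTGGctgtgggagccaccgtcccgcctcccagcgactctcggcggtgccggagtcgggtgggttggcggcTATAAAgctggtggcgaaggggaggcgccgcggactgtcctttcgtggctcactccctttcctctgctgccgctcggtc
DCLRE1C: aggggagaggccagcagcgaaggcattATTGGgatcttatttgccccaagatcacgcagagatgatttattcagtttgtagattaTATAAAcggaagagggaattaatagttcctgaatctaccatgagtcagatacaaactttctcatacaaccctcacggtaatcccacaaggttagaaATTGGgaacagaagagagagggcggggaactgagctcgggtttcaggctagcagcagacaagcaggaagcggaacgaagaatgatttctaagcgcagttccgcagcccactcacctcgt
TK1: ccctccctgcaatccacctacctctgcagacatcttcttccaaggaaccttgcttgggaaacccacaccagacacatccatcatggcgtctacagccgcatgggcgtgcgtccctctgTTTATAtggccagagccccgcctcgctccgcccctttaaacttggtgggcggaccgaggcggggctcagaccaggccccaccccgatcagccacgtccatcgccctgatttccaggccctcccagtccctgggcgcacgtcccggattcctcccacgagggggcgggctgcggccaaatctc
UNG: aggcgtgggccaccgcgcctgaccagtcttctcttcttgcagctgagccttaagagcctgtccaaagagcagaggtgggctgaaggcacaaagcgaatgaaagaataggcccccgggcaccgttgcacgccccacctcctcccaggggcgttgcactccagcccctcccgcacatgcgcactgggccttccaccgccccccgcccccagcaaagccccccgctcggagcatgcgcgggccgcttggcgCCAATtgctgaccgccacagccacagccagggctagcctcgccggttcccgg
GCSAM: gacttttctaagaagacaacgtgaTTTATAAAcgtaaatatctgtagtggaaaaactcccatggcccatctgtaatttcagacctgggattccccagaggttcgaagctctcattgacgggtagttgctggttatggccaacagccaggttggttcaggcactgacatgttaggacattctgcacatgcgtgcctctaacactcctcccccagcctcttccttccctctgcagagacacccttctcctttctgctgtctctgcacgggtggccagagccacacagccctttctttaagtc
CD48: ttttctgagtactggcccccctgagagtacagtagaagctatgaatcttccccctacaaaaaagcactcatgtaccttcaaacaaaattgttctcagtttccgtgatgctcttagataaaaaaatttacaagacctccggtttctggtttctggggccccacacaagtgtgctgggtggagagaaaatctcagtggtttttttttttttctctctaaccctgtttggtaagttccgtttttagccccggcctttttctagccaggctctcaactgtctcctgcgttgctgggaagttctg
The windows are on chr5:43313363-43313662 (minus strand, HMGCS1), chr10:14954383-14954682 (minus, DCLRE1C), chr17:78187155-78187454 (minus, TK1), chr12:109097347-109097646 (plus, UNG), chr3:112133199-112133498 (minus, GCSAM) and chr1:160711773-160712072 (minus, CD48). In HMGCS1 a TATAAA began 29 bases before the start, with CCAAT boxes at 155 and 100 bases before it. The CD48 window held neither motif and had 44.7% G and C.

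Windows were found for 246 of the 371 genes at narrowing regions and for 7540 genes at the other promoter regions. Median GC content was 66.7% in narrowing windows, 66% in the others and 58.7% over all 35116 windows of the table. TATAAA on either strand was in 21 of 246 narrowing windows (8.54%), in 4.42% of the others and in 11.5% of all windows. CCAAT was in 33.3%, 37.3% and 34.6%, and the GC box GGGCGG in 76.0%, 74.2% and 45.0% of these 3 sets. The remaining motifs searched differed by less than 3 percentage points between narrowing and other windows: CACGTG (12.2% and 10.9%), TTTCCCGC or TTTGGCGC (4.88% and 4.14%), TCACNCCAC (2.03% and 1.07%), TGATGNAAT (0.407% and 0.279%), GCATGCGC (6.50% and 6.54%) and CCGGAAG (19.9% and 22.5%). Both sets of promoters were richer in G and C than the table as a whole.

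The lengths that chose the regions are given as a description, with no test. The median of the 274 narrowing regions was 1948, 1841 and 1877 bp in the 3 -Asn+Fe libraries, 1800, 1912 and 1839 bp in the 3 -Asn libraries, and 2165, 2150 and 2109 bp in the 3 +Asn libraries. The other 9101 promoter regions went the other way, with medians of 1863, 1777 and 1804 bp in -Asn+Fe, 1763, 1918 and 1843 bp in -Asn and 1746, 1748 and 1697 bp in +Asn libraries. The narrowing regions were thus longer than other promoters in complete medium and close to them in length without asparagine. Their -Asn over +Asn ratio had a median of 0.882 and ran from 0.580 to 0.93, against a median of 1.06 in the others. A single peak in every library made up 221 of the 274 regions (80.7%), so in most of them one peak became shorter. This share was 86.8% among the other promoter regions. At several regions with the lowest ratios, among them CD48, HMGCS1, IGFLR1 and KHDC1, some libraries held 2 or 3 peaks. Gaps between peaks are left out of covered length there.

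**Figure D1:**
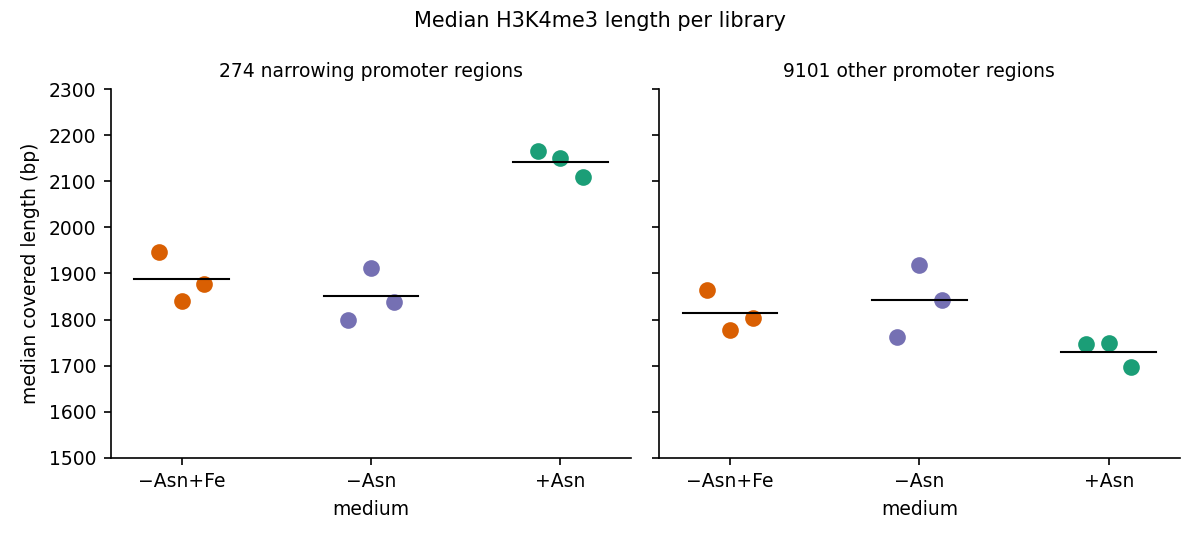
Median covered H3K4me3 length in bp (vertical axis, which starts at 1500) in each library of the 3 media, for the 274 narrowing promoter regions (left) and the 9101 other promoter regions (right). Points are libraries and lines their means; the narrowing regions are at 2109 to 2165 bp in the +Asn libraries and at 1800 to 1948 bp in the 6 libraries without asparagine.

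How many regions meet the rule depends on single libraries. The -Asn replicate 2 had the longest regions of the 9, with a median of 1840 bp over the 13883 regions, and without it the rule takes 681 regions, 270 of the 274 among them. Without +Asn replicate 3, which had the shortest regions at 1619 bp, it takes 456. Just inside the ratio of 0.93 lay the regions of PPIH, MYBBP1A and ZC3HAV1L (0.9296, 0.9294 and 0.9292), and just outside it those of POLE with PXMP2, UNC93B1 and XPO6 (0.9301, 0.9303 and 0.9305). At the length limit, IGFBP7 was just under with 3495 bp in +Asn, while BRIX1, at 3511 bp and a ratio of 0.761, and BAZ1B, at 3553 bp and 0.842, were just over.

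The loss of length was mostly on the side of the gene body. Among the 198 narrowing regions whose promoter genes lie on 1 strand, the gene-side edge lay a median of 1250 bp past the outer 5′ end in -Asn cells and 1459 bp in +Asn cells. Region by region, the position of that edge changed by a median of -211 bp in -Asn relative to +Asn, where a negative change is an edge that moved in, and the upstream edge by -22.2 bp. In 155 of the 198 (78.3%) the gene-side edge of all 3 -Asn libraries lay inside that of all 3 +Asn libraries. This held for the upstream edge in 52 (26.3%). Among the 6381 other promoter regions with genes on 1 strand, the shares were 5.59% on the gene side and 2.26% upstream. The rule asked for shorter -Asn lengths, so the gap between these sets follows in part from the choice of regions. The change at the gene-side edge was below that at the upstream edge in 157 of 198 narrowing regions (79.3%). Among the other promoter regions this held for 3561 of 6381 (55.8%). Their edges moved out by a median of 39.7 bp on the gene side and 56 bp upstream. A gene-side edge that moved out by less than the upstream edge is therefore counted there too.

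**Figure D2:**
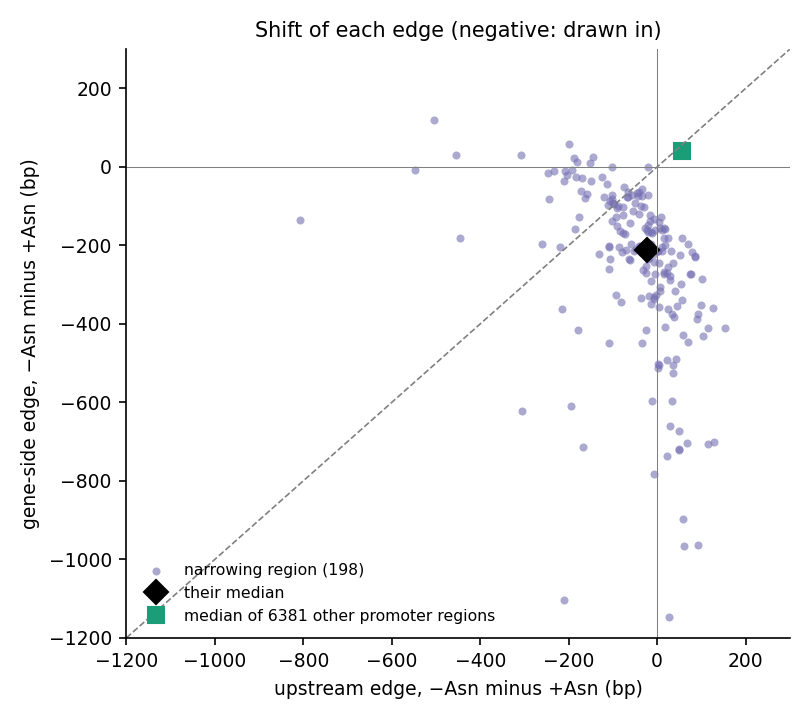
Change in the position of the upstream edge (horizontal axis, bp) and of the gene-side edge (vertical axis, bp), mean of 3 -Asn minus mean of 3 +Asn libraries, with negative values for an edge that moved in. Each point is 1 of 198 narrowing regions with genes on 1 strand; most lie below the dashed line of equal shift, and the median is -22.2 bp upstream and -211 bp on the gene side.

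Where 2 genes start back to back, the side that shortened can be set beside the RNA of the gene on that side, which the rule did not use. The 34 narrowing regions with diverging genes that were both tested for RNA held 33 gene pairs, since NCAPH2 and LMF2 have 2 regions. In 22 of the 34, the edge on the side of the gene with the lower -Asn over +Asn fold change moved in by more. Over the 34 the median change was -135 bp on that side and -73.7 bp on the other. In 16 of the 34 exactly 1 gene was called lower, and the edge on its side moved in by more in 13, with median changes of -172 bp on its side and -59.2 bp on the other. Both regions of NCAPH2 and LMF2 are among the 16, and each holds the start of only 1 of these genes. The side of NCAPH2, the lower gene, moved in by more at 1 of them and by less at the other. Between PARPBP, a regulator of homologous recombination, and NUP37, a nuclear pore subunit, the PARPBP side changed by -416 bp and the NUP37 side by 104 bp; PARPBP RNA averaged 20.4 ± 3 CPM in -Asn and 49.9 ± 1.23 CPM in +Asn cells (SD, n = 3 each), and NUP37 RNA 34.6 ± 3.64 CPM in -Asn and 31.8 ± 0.730 CPM in +Asn cells. NUP37 was not called (log2 fold change 0.12), except higher without -Asn replicate 2 (0.20) or with library totals only (0.33). The pattern was not uniform. At the promoter of TK1 and AFMID, the TK1 side changed by -134 bp and the AFMID side by -371 bp although TK1 had the lower fold change.

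The 12 regions with the lowest ratio, shown in the plot of lengths by library, belonged to CD48, ANGPTL2, LINC01226, HMGCS1, IGFLR1, U62631.1, AC125603.2, AC016831.1, SNHG4 with MATR3, GCSAM with TBILA, DCLRE1C and KHDC1. At CD48, a surface protein of lymphocytes that binds CD2 and 2B4, the region (chr1:160709107-160712242, hg38) covered 2008, 1462 and 1506 bp in -Asn+Fe, 1545, 1714 and 1440 bp in -Asn, and 2887, 2920 and 2299 bp in +Asn libraries. All 6 libraries without asparagine were shorter than all 3 +Asn libraries. CD48 RNA was at 66.7, 51.2 and 54.7 CPM in -Asn and 76.7, 79.2 and 83.8 CPM in +Asn libraries, a log2 fold change of -0.47 (SE 0.09, edgeR adjusted p = 0.00024).

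At HMGCS1, the cytosolic HMG-CoA synthase of the mevalonate pathway, the region (chr5:43309936-43313683) covered 2047, 1800 and 2018 bp in -Asn+Fe, 2191, 2373 and 1844 bp in -Asn and 3644, 3206 and 3219 bp in +Asn libraries. Its gene-side edge changed by -1147 bp in -Asn and by -1564 bp in -Asn+Fe relative to +Asn, while the upstream edge changed by 26.3 and 8.33 bp. HMGCS1 was thus shorter on 1 side, downstream of the TATAAA printed above. At DCLRE1C, the nuclease Artemis of V(D)J recombination and end joining, the region covered 2423, 2007 and 2380 bp in -Asn+Fe, 1839, 2566 and 2384 bp in -Asn and 3001, 3438 and 3298 bp in +Asn libraries.

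ANGPTL2 encodes a secreted angiopoietin-like protein, and its region was 839, 915 and 920 bp in -Asn, against 1723, 1483 and 1135 bp in +Asn libraries. ANGPTL2 RNA fell with it, to 2.13 ± 0.112 CPM in -Asn, against 9.16 ± 0.491 CPM in +Asn cells (SD, n = 3 each; log2 fold change -2.10, edgeR adjusted p = 1.15e-09). RNA also fell at KHDC1 (log2 fold change -1.59, edgeR adjusted p = 1.69e-08), at AC125603.2 (-2.02, adjusted p = 2.91e-08), and at SNHG4, a small nucleolar RNA host gene (-1.24, adjusted p = 3.23e-10). SNHG4 lies within MATR3 on the same strand, so the split of reads between them is uncertain. LncRNA genes at 2 of the 12 regions were called higher. LINC01226 had a log2 fold change of 0.20 (adjusted p = 0.0325), a call lost with DESeq2 (0.18) and when any 1 library other than -Asn+Fe replicate 1 or -Asn replicate 3 was left out (0.15 to 0.21). AC016831.1 was at 2.22, 2.55 and 2.49 CPM in -Asn and 0.616, 0.403 and 0.252 CPM in +Asn libraries (log2 fold change 2.50, adjusted p = 1.26e-07). GCSAM, a germinal centre signalling adaptor, and TBILA were at or near 0 CPM in every library, but the count table lists a second copy of each, so reads that match both copies may be missing. This holds for 12 of the 371 genes, of which 8 were not tested.

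**Figure D3:**
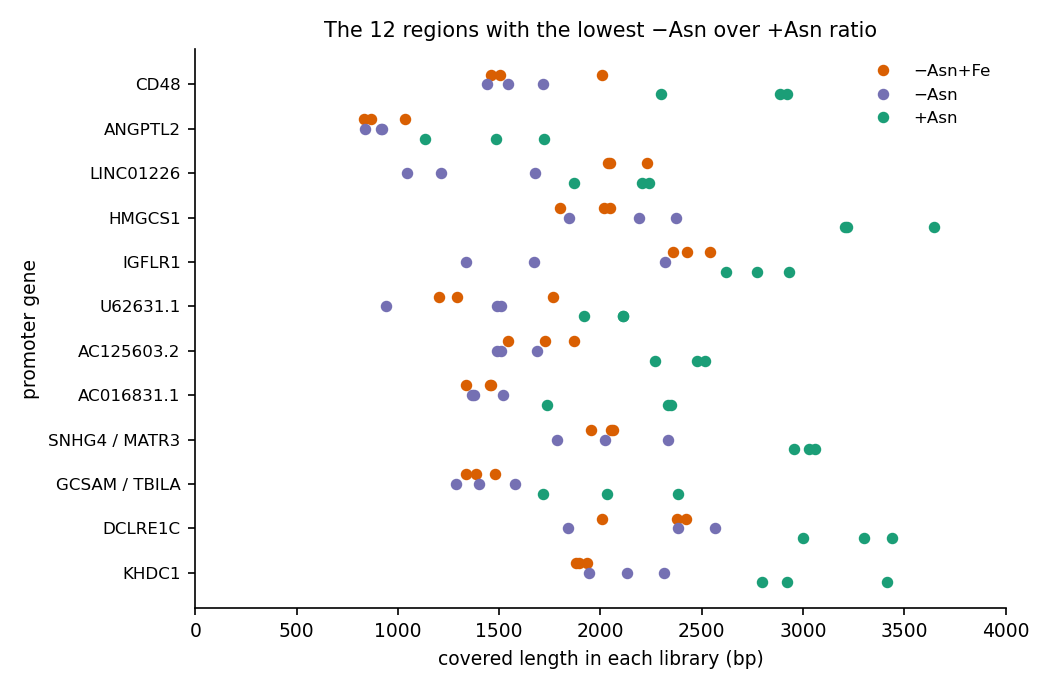
Covered length in bp (horizontal axis) in each of the 9 libraries for the 12 regions with the lowest -Asn over +Asn length ratio, named by their promoter genes. Points are single libraries. At LINC01226 the 3 -Asn+Fe points (2035, 2049 and 2229 bp) sit among the +Asn points (1867 to 2239 bp). At HMGCS1 the -Asn+Fe points (1800 to 2047 bp) overlap the -Asn points (1844 to 2373 bp).

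The genes at the narrowing regions lost RNA far more often than other genes. Of 371 promoter genes (305 protein-coding and 66 lncRNA), 324 passed the low-count filter and were tested. In -Asn relative to +Asn cells, 219 were called lower (67.6%) and 31 higher (9.57%) by edgeR's quasi-likelihood test at an adjusted p under 0.05, where 30.2% of all 17939 genes tested were lower and 31.0% higher. At the other promoter regions 36.1% of genes tested were lower and 32.6% higher. The median log2 fold change was -0.62 at narrowing regions, 0.04 over all genes and -0.02 at the other promoters. A fall of at least 2-fold was called for 108 of the 324 genes at narrowing regions and a rise of that size for 9. Over all 17939 genes tested these counts were 1481 and 2616, and over the 10159 at the other promoter regions 791 and 1204. With library totals in place of the composition factor, under which the median of all genes is 0.25 and that of the genes at narrowing regions -0.41, 185 were lower (57.1%) and 49 higher (15.1%). Of all genes tested 21.4% were then lower and 40.9% higher.

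Seen from the RNA, the share of promoter genes at narrowing regions climbed with the size of the fall. Among promoter genes that fell at least 4-fold, 22 of 94 (23.4%) were at narrowing regions, and among those that fell 2- to 4-fold 86 of 805 (10.7%). Among those that fell by less the share was 3.72%, among genes not called 2.27%, and among those that rose 2- to 4-fold 0.704%. Across the 8106 promoter regions with a tested nearest gene, length change and RNA change were correlated (Pearson r = 0.458, Spearman rho = 0.412), as a description over regions that share the same 6 libraries of each assay. Within the 253 narrowing regions of that set r was 0.111 and rho 0.149. The rule cuts the range of length ratios in them, so these values cannot be compared with those over all regions. When the 324 genes were divided by length ratio into 3 sets of 108, 83, 70 and 66 were lower, from the most to the least narrowed. Of the 263 narrowing regions with a tested gene, 204 held at least 1 gene that was lower, and 23 held a higher gene and no lower one. These counts by region were not made for the other promoter regions, so they have no background share. In 61 of the 263 at least 2 genes were tested, which gives more chances of holding a lower one. In complete medium the protein-coding genes of narrowing regions were at a median of 9.88 RPKM (CPM per kilobase of gene length) and those of the other regions at 5.77 RPKM.

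**Figure D4:**
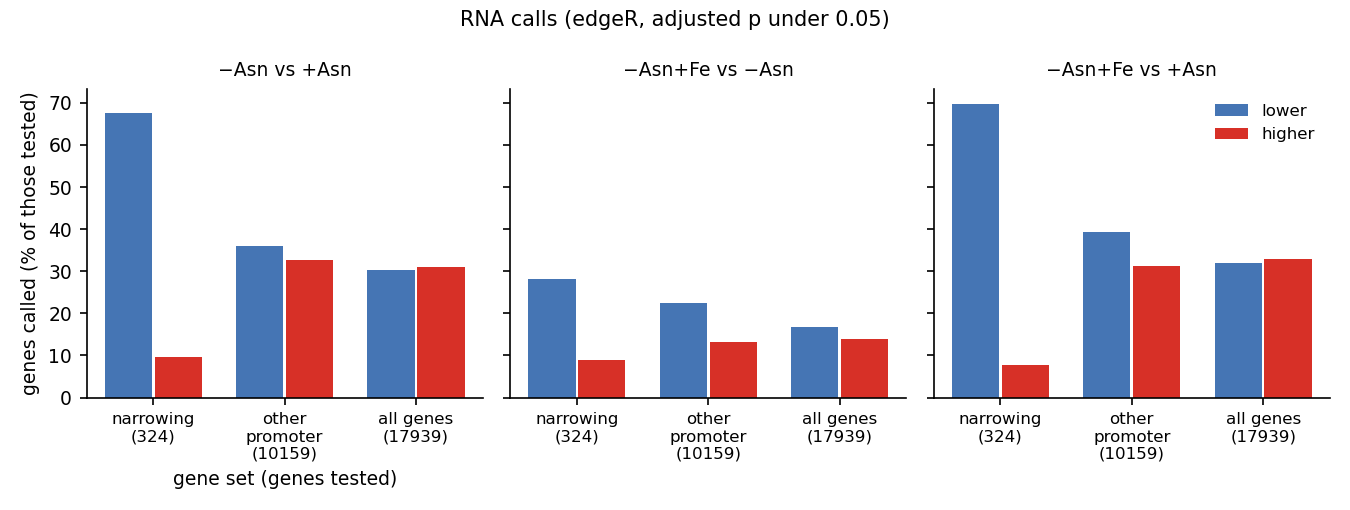
Share of genes tested that were called lower (blue) and higher (red) in RNA, in percent (vertical axis), for genes at narrowing regions, genes at the other promoter regions and all genes, in each of the 3 comparisons. In -Asn relative to +Asn cells 67.6% of genes at narrowing regions were lower and 9.57% higher.

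By gene list, the synthesis of cholesterol and fatty acids had the most genes at narrowing regions. Of the 30 genes of that list that start at one of the 9375 promoter regions, 9 were at narrowing regions (30.0%), where 2.92% of the promoter regions narrowed, among them HMGCS1, IDI1, STARD4, EBP, CYP51A1, ACACA, LSS and ELOVL1. Of the 9, 8 were lower in RNA in -Asn than in +Asn cells and none was higher; CYP51A1, lanosterol 14-demethylase, was not called (log2 fold change -0.48; called without -Asn replicate 2, +Asn replicate 2 or +Asn replicate 3, at -0.69 to -0.62). ACACA and LSS are listed under 2 gene IDs each, so their counts are uncertain. In the list as a whole 34 of 38 genes tested were lower. The lists and the regions were both chosen with earlier results of these data known.

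HMGCS1 was at 121, 135 and 145 CPM in -Asn and 394, 406 and 409 CPM in +Asn libraries, with no overlap (log2 fold change -1.60, SE 0.07, edgeR adjusted p = 1.44e-11). IDI1, isopentenyl diphosphate isomerase, averaged 147 ± 9.37 CPM in -Asn and 295 ± 7.66 CPM in +Asn cells (SD, n = 3 each; adjusted p by edgeR 1.74e-09). LSS, lanosterol synthase, had a log2 fold change of -1.61, EBP, the sterol isomerase, of -1.14, and ELOVL1, a very-long-chain fatty acid elongase, of -0.80. TCACNCCAC, a core of sterol regulatory elements, was in none of the 8 windows found for these 9 genes. It was in 1 of 15 windows of the list's genes at other promoter regions. CCAAT was in 6 of the 8 and in 10 of the 15. Other forms of the sterol element and bases outside the windows were not searched.

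TMEM97, a sterol-regulated membrane protein outside the list, was also at a narrowing region. It was at 35.3, 31.7 and 33.8 CPM in -Asn and at 156, 165 and 163 CPM in +Asn libraries. STARD4, a cytosolic sterol carrier, overlapped its +Asn levels in -Asn+Fe cells, as given below.

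The lists for S phase and DNA repair had 3 and 4 genes at narrowing regions. UNG, the uracil-DNA glycosylase, had the largest fall among the genes named by size: 17.9, 14.6 and 15.2 CPM in -Asn, against 161, 150.1 and 161 CPM in +Asn libraries (log2 fold change -3.31, SE 0.08, edgeR adjusted p = 9.45e-15). Its region (chr12:109097155-109099197) was 1620, 1666 and 1655 bp in -Asn and 1974, 1843 and 1790 bp in +Asn libraries. TK1, thymidine kinase, and POLE2, a subunit of DNA polymerase epsilon, had log2 fold changes of -2.07 and -2.17. These were 3 of the 34 S phase genes at promoter regions (8.82%), although all 46 S phase genes tested were lower in RNA, so most S phase genes fell without meeting the length rule.

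Of the DNA repair list 4 of 61 genes were at narrowing regions (6.56%, where 2.92% of promoter regions narrowed) and all 4 were lower, as were 49 of the 72 genes of the list that were tested. They were DCLRE1C, DCLRE1B, which protects telomere ends, EXO1, the mismatch-repair and resection exonuclease, and XRCC2, a gene of homologous recombination. XRCC2 was at 35.7, 41.3 and 43.6 CPM in -Asn and 131, 139 and 138 CPM in +Asn libraries. The helicase-nuclease DNA2 fell to 19 ± 2 CPM in -Asn, against 92.0 ± 2.57 CPM in +Asn cells (SD, n = 3 each). Other large falls by the same rule were those of DRAXIN, an axon guidance protein (log2 fold change -3.13), DEPP1 (-2.79), LRRC45 (-2.62), TTPA, the tocopherol transfer protein (-2.41), and MYORG, a glycosidase (-2.31).

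The remaining lists had 0 to 3 members each, shares of 0% to 5.88% beside the 2.92% of all promoter regions. Splicing had 3 of 52 genes (5.77%), the RNA helicase DHX9, U2AF1 and SNRPD1. The others were MAD2L1 of the spindle checkpoint (log2 fold change -1.15), MYBBP1A of ribosome biogenesis (-0.83), FLVCR1, a heme and choline transporter (-0.75), and RIOX1, a JmjC oxygenase (-0.78). UQCRC1 of respiratory complex III (-0.50), MRPS27 of the mitochondrial ribosome (-0.54), DHX9 (-1.20) and the spliceosomal SNRPD1 (-0.37; not called without -Asn replicate 2, at -0.26) were also lower. U2AF1 had a log2 fold change of -0.40 (not called with library totals only, at -0.19) but has a near-identical copy, so its counts are uncertain, ATG101 of the autophagy initiation complex was not called (-0.07; without -Asn replicate 1 it was called, at -0.18), and CHORDC1, a co-chaperone listed under 2 gene IDs, was too low to test. No gene of the lists for precursor B cells, KMT2A fusion targets, p53 targets, H3K4 methyltransferase complexes or other chromatin regulators was at a narrowing region, out of 15, 3, 29, 20 and 41 that start at the 9375 promoter regions. With 2.92% of promoter regions narrowing, a count of 0 in lists of this size is not set apart from the background.

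A minority of genes at narrowing regions gained RNA. PSPH, the last enzyme of serine synthesis and the only one of 19 amino acid response genes at these promoters to be at a narrowing region, was at 56.0, 51.6 and 54.4 CPM in -Asn and 21.4, 18.2 and 18.7 CPM in +Asn libraries (log2 fold change 1.47, SE 0.08, edgeR adjusted p = 7.11e-11). It shares its region with CCT6A, a chaperonin subunit, which was at 134, 123 and 133 CPM in -Asn and 261, 271 and 271 CPM in +Asn libraries. The edge over CCT6A changed by -205 bp and that over PSPH by -81.3 bp. SNHG8, a small nucleolar RNA host gene, rose to 324, 254 and 236 CPM in -Asn, against 73.1, 50.9 and 59.3 CPM in +Asn libraries. STOML1 (log2 fold change 1.35), SNHG11 (1.07), LRSAM1, a ubiquitin ligase (0.90), IGBP1 (0.87) and SEC14L1 (0.60) were also higher. RPL12 rose by 0.58 on the log2 scale, with -Asn replicate 1 at 1203 CPM and the other -Asn libraries at 879 and 877 CPM.

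The genes with the highest level per length at narrowing regions in +Asn cells were ribosomal protein genes: RPS2 (827 RPKM), RPL8 (725), RPS6 (702), RPS4X (611) and RPS3A (554). Their RNA in -Asn relative to +Asn cells changed little, with log2 fold changes of 0.05, -0.31, 0.27, 0.08 and 0.26. RPS2 and RPS4X were not called, except higher with library totals only (0.25 and 0.29). The call for RPS6 was lost when -Asn+Fe replicate 2 or 3, -Asn replicate 1 or any +Asn library was left out (0.11 to 0.27). That for RPS3A was lost without any 1 of the -Asn+Fe libraries, -Asn replicate 1 or +Asn replicate 2 or 3 (0.12 to 0.26), and that for RPL8 without -Asn replicate 2 or 3 or +Asn replicate 1 (-0.32 to -0.22). Ribosomal protein genes have many processed copies, so their counts are uncertain. The region of RPS3A was 2036, 2513 and 2231 bp in -Asn and 2551, 2704 and 2934 bp in +Asn libraries, and that of RPS6 2591, 2886 and 2898 bp in -Asn and 3242, 3321 and 3281 bp in +Asn libraries.

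The lengths with iron and hinokitiol are given as a description. The comparison with +Asn reuses the +Asn libraries, in which the regions were chosen to be long, and that with -Asn the -Asn libraries, in which they were chosen to be short, so both choices favour the direction counted and the counts and tests are not evidence of a change. The median -Asn+Fe over +Asn length ratio was 0.9 at narrowing regions and 1.04 at the others. All 3 -Asn+Fe libraries were shorter than all 3 +Asn libraries in 175 of the 274 (63.9%), against 7.2% of all 9375 promoter regions. By limma on log2 length over the 13883 regions, 92 narrowing regions were called shorter in -Asn+Fe than in +Asn cells and none longer, where 1.92% of all regions were shorter and 11.7% longer. With single -Asn+Fe or +Asn libraries left out, 46 (without +Asn replicate 2) to 59 (without -Asn+Fe replicate 1) were called. The others gave 50 without -Asn+Fe replicate 3, +Asn replicate 1 or +Asn replicate 3, and 54 without -Asn+Fe replicate 2. Over all 13883 regions, these settings gave 118 to 196 shorter regions.

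Between -Asn+Fe and -Asn, limma called 0.0% of regions in length (0 of 13883), and none of the narrowing ones. At an unadjusted p under 0.05, limma had 30 of the 274 longer and 6 shorter. Over all 13883 regions it had 287 longer and 755 shorter at that threshold. The median -Asn+Fe over -Asn ratio was 1.02 at narrowing regions and 0.984 at the others. All 3 -Asn+Fe libraries were longer than all 3 -Asn libraries in 36 narrowing regions (13.1%, against 3.22% of the 9375), and all 3 were shorter in 11 (4.01%, against 8.94%). The mean -Asn+Fe length reached the mean +Asn length in 15 of the 274 narrowing regions, chosen for long +Asn lengths, and in 6478 of the 9101 other promoter regions.

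The largest ratio, 1.6, was that of LINC01226, a lncRNA. Its region (chr1:31506108-31508429) was 2035, 2049 and 2229 bp in -Asn+Fe, 1046, 1677 and 1211 bp in -Asn and 2203, 2239 and 1867 bp in +Asn libraries. Its RNA was at 30.4, 31.7 and 31.9 CPM in -Asn+Fe, 23.1, 23.0 and 21.0 CPM in -Asn and 19.3, 20.2 and 18.7 CPM in +Asn libraries, with a log2 fold change of 0.49 in -Asn+Fe relative to -Asn (SE 0.08, edgeR adjusted p = 0.000168). IGFLR1 (ratio 1.37), NME4, a mitochondrial nucleoside diphosphate kinase (1.24), AC092718.8 (1.23) and EEPD1 (1.22) followed. IGFLR1 was 2428, 2360 and 2538 bp in -Asn+Fe and 1674, 2319 and 1338 bp in -Asn libraries, and the 3 -Asn+Fe lengths at NME4 (1342, 1125 and 1488 bp) were above the -Asn lengths (1108, 1061 and 1013 bp). NME4 RNA was lower, at 8.94 ± 1.09 CPM in -Asn+Fe and 13.7 ± 2.78 CPM in -Asn cells (SD, n = 3 each). The lowest ratios were those of SLC6A6, the taurine transporter (0.732), MEX3D (0.774), LINC01922 (0.828), IL21R (0.873) and GCDH (0.874). The IL21R region was 953, 810 and 1059 bp in -Asn+Fe and 1098, 963 and 1171 bp in -Asn libraries, whose ranges overlap, and IL21R RNA was higher, at 115, 129 and 121 CPM in -Asn+Fe and 94.7, 83.9 and 83.2 CPM in -Asn libraries.

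In RNA, 91 genes at narrowing regions were lower in -Asn+Fe than in -Asn cells (28.1%) and 29 higher (8.95%), where 16.8% of all genes were lower and 14.0% higher; genes of the other promoter regions were lower in 22.4% and higher in 13.1%. All 3 S phase genes and 3 of the 4 repair genes at narrowing regions were lower in -Asn+Fe than in -Asn cells, as were 45 of 46 and 40 of 72 genes tested of those whole lists; DCLRE1C was not called (-0.06). TK1 was at 5.56, 5.82 and 5.23 CPM in -Asn+Fe, 25.4, 23.0 and 20.1 CPM in -Asn and 107, 87.6 and 92.9 CPM in +Asn libraries, with no overlap between media (log2 fold change -2.04 in -Asn+Fe relative to -Asn, SE 0.11, edgeR adjusted p = 1.17e-09). WDR76 (-1.57), UBE2T, a Fanconi pathway ubiquitin-conjugating enzyme (-1.54), DDX11, a cohesion helicase with near-identical copies (-1.23), SKA3 of the kinetochore (-1.21), EXO1 (-1.12), DCLRE1B (-1.10) and PGP (-1.02) followed, of which EXO1 and DCLRE1B are in the repair list and the others in neither.

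The TK1 region was not called in length: it was 1747, 1750 and 1644 bp in -Asn+Fe and 1714, 1892 and 1961 bp in -Asn libraries, which overlap. At EXO1 the region was 2068, 1972 and 1971 bp in -Asn+Fe, 1882, 2003 and 1957 bp in -Asn and 2159, 2143 and 2154 bp in +Asn libraries.

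Of the 9 cholesterol and fatty acid genes, 3 were higher in -Asn+Fe than in -Asn cells (HMGCS1, STARD4 and LSS) and 2 lower (EBP and ELOVL1). In that list as a whole, 12 of 38 genes tested were higher and 8 lower. The EBP call was lost without -Asn replicate 1 (log2 fold change -0.20), -Asn+Fe replicate 1 (-0.36) or replicate 3 (-0.38), or +Asn replicate 3 (-0.42), against -0.43 with all libraries. That for ELOVL1 (-0.24) was lost when any -Asn+Fe or +Asn library or -Asn replicate 1 was left out (-0.25 to -0.13), and that for LSS (0.39) without -Asn+Fe replicate 2 (0.26) or -Asn replicate 1 (0.28). The calls for HMGCS1 (0.35) and STARD4 were kept without any single library. STARD4 was at 81.5, 75.6 and 78.5 CPM in -Asn+Fe, 38.3, 53.7 and 56.3 CPM in -Asn and 81.8, 78.8 and 75.7 CPM in +Asn libraries; all 3 -Asn+Fe libraries were above all 3 -Asn libraries and overlapped the +Asn libraries (0.67 relative to -Asn, SE 0.11, edgeR adjusted p = 0.00024; relative to +Asn adjusted p = 0.977). Its region was 2059, 2141 and 1941 bp in -Asn+Fe, against 2095, 2136 and 1823 bp in -Asn and 2496, 2296 and 2234 bp in +Asn libraries. TBK1, a kinase of innate immune signalling, showed the same order: 73.8, 67.2 and 73.2 CPM in -Asn+Fe, 39.7, 40.2 and 44.6 CPM in -Asn and 65.1, 75.6 and 71.5 CPM in +Asn libraries, and its region was 2007, 1982 and 2045 bp in -Asn+Fe, 1687, 1908 and 1721 bp in -Asn and 2095, 2026 and 2141 bp in +Asn libraries. MAP2K6, a p38 kinase kinase (0.60), ZNF792 (0.57), FAM91A1 (0.42; not called without -Asn+Fe replicate 1 or 3, at 0.40 and 0.41) and OTUD3, a deubiquitinase (0.42), were the others named as higher.

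**Figure D5:**
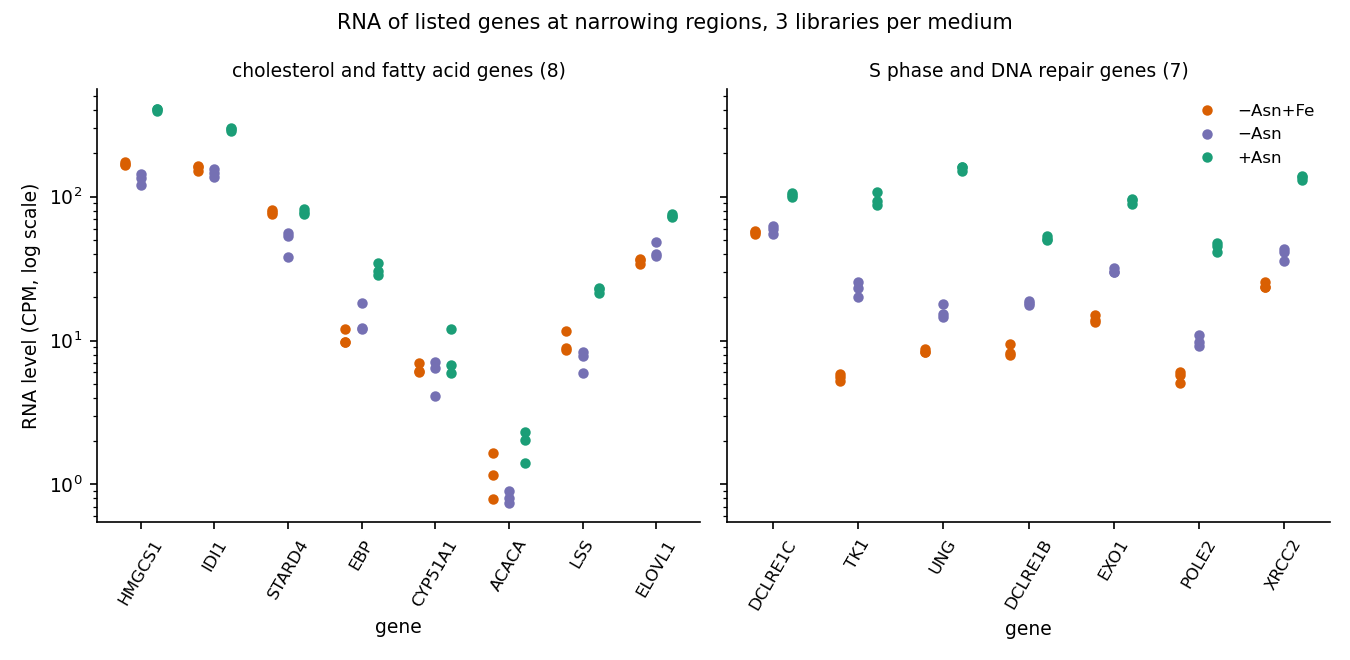
RNA level in CPM (vertical axis, log scale) in each of the 9 libraries for 8 of the 9 cholesterol and fatty acid genes (left) and the 7 S phase and DNA repair genes (right) at narrowing regions, ordered by length ratio. Points are single libraries; for STARD4 the -Asn+Fe points (75.6 to 81.5 CPM) lie with the +Asn points, and for TK1 (5.23 to 5.82 CPM) they lie below both other media.

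Relative to +Asn, 226 of the 324 genes (69.8%) were lower in -Asn+Fe and 25 higher (7.72%), where 31.9% of all genes were lower and 32.9% higher. The median log2 fold change was -0.70. Among genes averaging 5 CPM or more, SNHG8 (log2 fold change 1.89), PSPH (1.63) and IL21R (0.85) were furthest above +Asn; AC016831.1, under that level, was at 3.45. Those furthest below were UNG (-4.21), TK1 (-4.12) and WDR76 (-3.52).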

How the data were processed

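RNA and H3K4me3 were measured in RS4;11 cells in 3 media, with 3 libraries per medium and assay; the 3 input libraries were not used here. The authors deposited gene-level counts as whole numbers with no normalization, and per the submitters' processing notes STAR 2.7.2a, featureCounts of Subread 1.6.5 and hg38 were used for RNA. The deposited peak table lists, per the file headers and values, the peaks of each library in each merged region, with no height, count or p-value; the submitters' processing notes name MACS2 2.2.7.1, Bowtie2 2.4.4 and Picard 2.18.26. The peak threshold, the use of the inputs, the strand setting of the counts and H3K4me3 read depth were not given in the labels or headers used here. The peak table names 12 columns for 13 fields; in every one of its 19279 lines the extra field is a repeat of the region, and the 9 library names were read against the last 9 fields; the columns named untreated were read as complete medium.

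Covered length is the summed length of a library's peaks in a region. A peak's edge depends on the caller and on depth, so lengths are not amounts of H3K4me3; libraries held a peak in 14741 to 17448 regions, with the fewest in +Asn. RNA totals were 29362707 to 42478518 counts per library. The gene lengths in the same deposited table gave RPKM. A gene's outer 5′ end is the end of its annotated span, which can differ from the start in use.

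RNA was tested with edgeR 4.0.16 (quasi-likelihood, TMM, filterByExpr, all 9 libraries in 1 fit, Benjamini-Hochberg over 17939 genes, threshold 0.05) and log2 length with limma 3.58.1 over 13883 regions called in all 9 libraries, each tested on simulated data. No 2 libraries of a medium agreed within sampling noise; -Asn replicate 1 stood apart in RNA (chi-square per degree of freedom 42.2 and 46.5 against the other -Asn libraries, which gave 6.32 between them). Edge positions, motif shares and divergent promoters were described without tests, and the groupings by edge, by diverging genes and by motif were added after the data had been seen. Alternatives were DESeq2 1.42.0, other size factors and filters, other rule thresholds, a replicate term and leaving out each library. Genes were named by rule: the 12 lowest length ratios, values beside the thresholds, up to 4 per list, the 5 highest and lowest iron ratios, up to 8 per direction and RNA comparison among genes called, at 5 CPM or more and without overlap between groups, and the 5 highest RPKM; further list members, TMEM97 apart, complete a count already given, and genes of diverging pairs were chosen after their values were seen. The members and lists were chosen with earlier results of these data known. Values of some members of these sets are not reported here.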

Additional observations from a re-analysis of the deposited data

How the results depend on the processing

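The number of narrowing regions was 179 at a ratio of 0.90, 331 at 0.95, 277 with outer spans, 341 without the length limit and 1410 after dividing lengths by each library's median, a set that holds all 274 and in which 59.7% of genes tested were lower in -Asn than in +Asn; leaving out 1 library gave 245 to 681. The median -Asn+Fe over +Asn ratio was 0.860 after that division, and 0.995 at the other promoter regions. When log2 lengths were centred on the library median, 184 narrowing regions were called shorter in -Asn+Fe than in +Asn. Over all 13883 regions the shorter calls then rose from 266 to 1052. Leaving out 1 library gave 46 to 99 at narrowing regions and 118 to 328 over all regions. Higher RNA calls moved most: with library totals only, 49 in -Asn and 53 in -Asn+Fe relative to +Asn, and with the nearest gene of each region only, 20 and 16. The share of all genes called higher also rose with library totals only, to 40.9% in -Asn and 45.0% in -Asn+Fe relative to +Asn. Under library totals only, ATG101 (0.0091) and RPS4X (0.22) changed sign in -Asn+Fe relative to +Asn. Of the values for single genes under all alternatives, 3468 stayed on the same side, 87 lost and 37 gained a call. Replicate numbers did not pair the libraries (correlations of deviations -0.08 to 0.07 in RNA and -0.21 to 0.09 in H3K4me3). With a replicate block 218 genes at narrowing regions were lower and 31 higher in -Asn than in +Asn, beside 29.7% and 30.3% of all genes. With that block 67 narrowing regions were shorter in -Asn+Fe than in +Asn, and 167 of all 13883 regions. The peak table gives no height, so whether a shorter region also held less H3K4me3 was not analysed here.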

Other observations

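The narrowing regions were spread over all chromosomes, with the highest shares of promoter regions on chromosome 21 (5 regions, 6.02%), X (16 regions, 5.50%), 22 (11 regions, 4.66%), 9 (17 regions, 4.39%) and 11 (23 regions, 4.33%) and the lowest on chromosome 5 (6 regions, 1.49%). These are counts without a test. Every promoter gene was a lncRNA in 18 narrowing regions (6.57%, against 8.63% of the others). Over all narrowing regions the 66 lncRNA genes had a median of 0.237 RPKM in +Asn cells and 69.7% were under 1 RPKM, against a median of 0.0972 RPKM and 88.6% for the 2615 lncRNA genes of the other promoter regions.

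Edges by RNA class can be set side by side for the regions with genes on 1 strand. Where the nearest gene was lower in -Asn than in +Asn cells (142 narrowing regions), the gene-side edge changed by a median of -216 bp and the upstream edge by -19.7 bp. Where it was higher (16 regions), the medians were -166 bp on the gene side and -97 bp upstream. Where it was not called (25 regions), they were -196 bp on the gene side and -25.3 bp upstream, close to those of the lower class. Where it was not tested (15 regions), they were -131 and -108 bp. Among the other promoter regions with a lower nearest gene (2179), the gene-side edge changed by a median of -0.333 bp and the upstream edge by 47 bp. With a higher one (1716) the medians were 86 and 66.3 bp, with one not called (1665) 41.3 and 54 bp, and with one not tested (821) 56.3 and 64.7 bp.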
